A study of Mus musculus with 6 samples.

Results

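The genes described here encode the receptors and ligands of interleukin 31 (IL-31) and oncostatin M in the epidermis of newborn mice with a constitutively active aryl hydrocarbon receptor (AhR). They are 7 genes, taken by symbol: the receptor subunits Il31ra, Osmr, Lifr and Il6st and the ligands Il31, Osm and Lif. Of these, 6 had at least 1 probe on the array whose RefSeq accession matched the symbol, 12 probes in all, against 18217 genes named in this way over the whole array. Lif had no matched probe and was not analysed here. A probe was tested when it was well above background, by the scanner software's own flag, on at least 3 of the 6 arrays. This held for 8 of the 12 probes and left 5 of the 7 genes among 12824 genes tested. Il31 was not among them. The genes were selected on their AhRCA against wild-type (WT) values in these same arrays, where Il31ra stood out, and its partner chains and the ligands were taken with it. For these genes, that contrast is therefore given as a description, with no test.

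The 3 AhRCA samples came from mice at postnatal day 0 that expressed a constitutively active form of AhR from the keratin 14 promoter, which is active in basal keratinocytes. The 3 WT samples came from littermates of the same age. The strain of both is labelled as mixed, and each of 3 independent samplings gave 1 AhRCA mouse and 1 WT littermate, so the samples are separate animals in 3 litter pairs. AhR itself is a transcription factor that is switched on by ligands such as dioxins.

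IL-31 is a cytokine made mainly by activated T cells and is known for causing itch. It signals through a complex of the IL-31 receptor A chain, encoded by Il31ra, and the oncostatin M receptor chain, encoded by Osmr. Osmr also pairs with gp130, encoded by Il6st, to bind oncostatin M, and the leukaemia inhibitory factor receptor, encoded by Lifr, pairs with gp130 to bind leukaemia inhibitory factor. These chains signal through Janus kinases (JAK) and STAT transcription factors, and keratinocytes are known to carry IL-31 and oncostatin M receptors.

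There was 1 Agilent array of 1 colour for each mouse, and 3 arrays per genotype limited the precision. Values are log2 intensities minus the 75th percentile of the array, so that 0 is the 75th percentile and 1 unit is a doubling of the signal. A value of one probe was not set against that of another, since probes differ in brightness. The marker sums given below do add signals of different probes. The share of spots well above background was 56.2% to 61.3%. Pairs 1 and 2 lay on slide 1 and pair 3 on slide 2. Xist, the RNA that coats the inactive X, lay between 4.43 and 4.66 on slide 1 and at -7.14 and -4.20 on slide 2. The AhR targets Cyp1a1, Cyp1b1 and Ahrr had log2 fold changes of 7.07, 5.34 and 5.91 in AhRCA over WT, in the direction of the labels. Ahr had a log2 fold change of -0.49 ± 0.10 (SE), and whether its probe reads the transgene is not known here. The epidermal keratin genes Krt5 and Krt14 (basal) and Krt1 and Krt10 (suprabasal) were bright on all arrays and differed by between -0.05 and 0.02 (log2). Of 7 basal keratinocyte markers 1 fell, Krt15, with -0.72 (adjusted p = 0.046, limma, Benjamini-Hochberg; lost in 10 of 16 alternatives, with adjusted p up to 0.194), and Col17a1 had 0.51 (adjusted p = 0.0623). By contrast, 6 of 6 endothelial markers were not well above background on any array.

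Il31ra, the chain that gives the complex its specificity for IL-31, had the largest fold change of the 5 tested members. It was read by 1 probe, well above background on all 6 arrays. Its processed intensities were 358, 269 and 320 in AhRCA 1 to 3, against 89.5, 54.2 and 68.3 in WT 1 to 3. On the scaled log2 axis the AhRCA arrays stood at -0.93, -1.22 and -1.24, against -3.02, -3.63 and -3.39 for the WT arrays. The AhRCA arrays lay closer together than the WT arrays, and 1.79 log2 units separated the lowest AhRCA array from the highest WT array. The group means were -1.13 ± 0.17 in AhRCA and -3.35 ± 0.31 in WT (SD, n = 3 each), a log2 fold change of 2.22 ± 0.18 (SE), or 4.65-fold. Within the litter pairs the difference was 2.09, 2.41 and 2.15. With normexp-corrected median signals in place of the processed signals, the log2 fold change was 1.49, or 2.81-fold. Il31ra had the 17th highest log2 fold change of the 12824 genes tested.

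The base sequence before the Il31ra start was read from RefSeq (GRCm38.p6), whose promoter table held 6 of the 7 members. The 250 bases before the start of Il31ra at chr13:112580663-112580912 (minus strand) and those before the annotated upstream start of Lifr at chr15:7129322-7129571 (plus strand) are shown, since these genes had the highest and the lowest fold change of the members. Capitals mark matches to the motifs searched on both strands: GCGTG, the core bound by AhR with its partner, its longer form TNGCGTG, which contains the core, the STAT element TTCNNNGAA and the AP-1 element TGANTCA.
Il31ra: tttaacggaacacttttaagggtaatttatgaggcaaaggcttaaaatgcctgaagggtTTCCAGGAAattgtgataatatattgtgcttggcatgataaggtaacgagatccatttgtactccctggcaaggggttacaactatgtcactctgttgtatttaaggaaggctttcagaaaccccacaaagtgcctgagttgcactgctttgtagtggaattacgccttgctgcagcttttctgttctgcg
Lifr: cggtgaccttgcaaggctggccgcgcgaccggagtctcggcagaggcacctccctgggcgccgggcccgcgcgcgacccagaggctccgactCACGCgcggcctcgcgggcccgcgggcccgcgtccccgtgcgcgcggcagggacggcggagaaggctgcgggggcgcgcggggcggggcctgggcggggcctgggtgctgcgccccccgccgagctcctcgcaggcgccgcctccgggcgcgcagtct
The Il31ra window held 1 STAT element, at -191 to -183 from the start, and no GCGTG. The Lifr window held 1 GCGTG on the opposite strand, at -158 to -154, and no STAT element. Neither of these windows held TNGCGTG or TGANTCA. The windows of Il6st, Osmr and Il31 and the second annotated start of Lifr held none of the 4 motifs, while that of Lif held 1 GCGTG and 1 TGANTCA. Over 32851 windows of the same length, 28.2% held GCGTG, 4.1% TNGCGTG, 7.02% TTCNNNGAA and 6.75% TGANTCA. The windows differed in base composition, with 42% G and C for Il31ra and 82.4% for the upstream start of Lifr, against a median of 52.4%. A match is a sequence, not a measured site.

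Il6st, which encodes gp130, the chain shared by oncostatin M, leukaemia inhibitory factor and interleukin 6 receptors, also stood higher in AhRCA. It had 1 probe, with 1.61, 1.61 and 1.48 in AhRCA 1 to 3, against 1.05, 1.07 and 0.74 in WT 1 to 3. The groups did not overlap, and the arrays of pair 3 were the lowest of both genotypes. The means were 1.56 ± 0.08 in AhRCA and 0.96 ± 0.19 in WT (SD, n = 3 each), a log2 fold change of 0.61 ± 0.13 (SE), or 1.53-fold. The 3 litter pairs gave 0.55, 0.54 and 0.73.

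Osmr, the chain that IL-31 and oncostatin M complexes share, lay the other way from its partner Il31ra. Its brighter probe stood at 0.015, 0.031 and 0.021 in AhRCA 1 to 3, against 0.57, 0.46 and 0.40 in WT 1 to 3. The 3 AhRCA arrays were nearly equal and all below the WT arrays. The means were 0.022 ± 0.0080 in AhRCA and 0.48 ± 0.08 in WT (SD, n = 3 each), a log2 fold change of -0.46 ± 0.10 (SE), or 1.37-fold lower. Litter pairs gave -0.56, -0.43 and -0.38. A second Osmr probe did not stand well above background on any of the 6 arrays, and its values overlapped between genotypes.

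Lifr, the receptor chain of leukaemia inhibitory factor, had the lowest fold change of the members and the most probes, 5. Its brightest probe stood at -1.11, -0.89 and -1.12 in AhRCA 1 to 3, against 0.11, 0.16 and 0.0041 in WT 1 to 3. The WT arrays lay near the 75th percentile of their array and a gap of 0.90 log2 units separated the lowest of them from the highest AhRCA array. The means were -1.04 ± 0.13 in AhRCA and 0.09 ± 0.08 in WT (SD, n = 3 each), a log2 fold change of -1.13 ± 0.11 (SE), or 2.19-fold lower. The 3 dimmer probes that passed the filter differed by -0.88, -0.89 and -0.76, the last being well above background on 2 of 3 AhRCA arrays. The probe below the filter was well above background on 0 AhRCA arrays and 1 WT array, so its difference is no measured fold. In 5 of 5 probes, this dim one included, every AhRCA array lay below every WT array, and all 15 differences within litter pairs were negative. Over all genes tested, 8.84% had every AhRCA array below every WT array. The probes share the RefSeq accession of Lifr and read the same RNA samples, so they are not replicates.

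**Figure D1:**
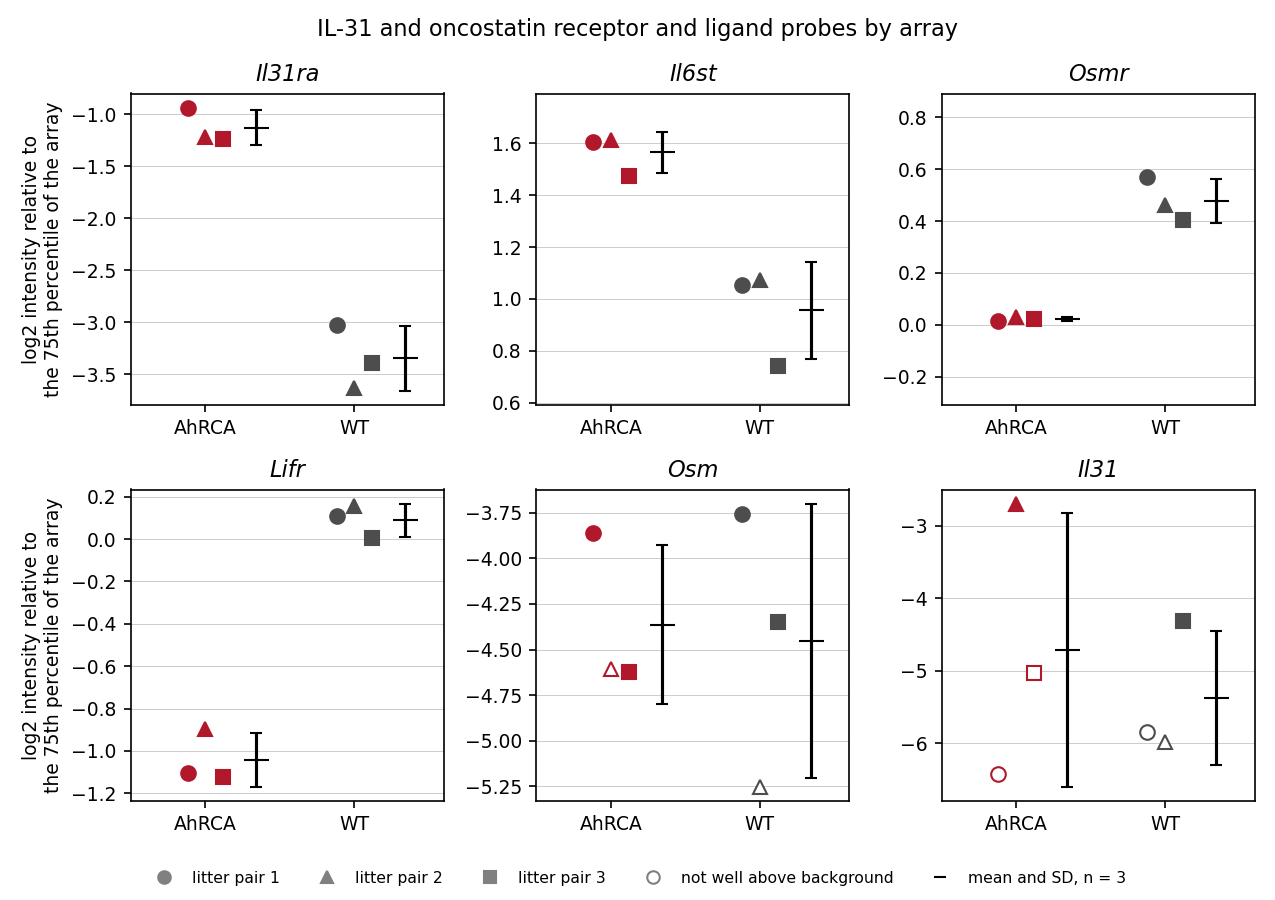
Log2 intensity relative to the 75th percentile of the array (vertical axes, with a range of their own in each panel) for the probe that stands for each gene, in 3 AhRCA (left) and 3 WT (right) arrays. Shapes mark litter pairs, open symbols arrays not well above background, and bars the mean and SD; Il31ra and Il6st lie higher and Osmr and Lifr lower in AhRCA, and Osm and Il31 overlap.

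**Figure D2:**
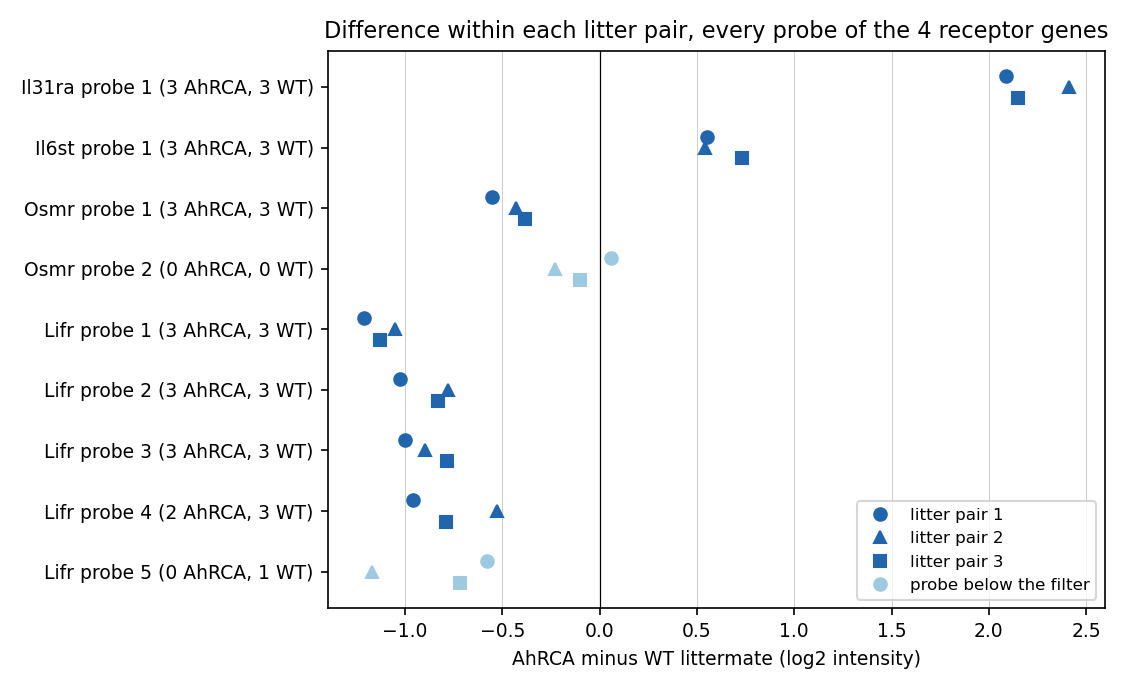
Difference between each AhRCA mouse and its WT littermate (log2 intensity, horizontal axis) for every probe of Il31ra, Il6st, Osmr and Lifr, with the number of AhRCA and WT arrays well above background in parentheses. All 5 Lifr probes lie left of 0 in the 3 pairs, while the second Osmr probe, well above background on 0 arrays, lies around 0.

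The ligands were dim. Osm, a cytokine made mainly by myeloid and T cells, had 1 of its 2 probes tested, with -3.86, -4.60 and -4.62 in AhRCA 1 to 3, against -3.76, -5.25 and -4.35 in WT 1 to 3. The probe was well above background on 2 of 3 AhRCA arrays and 2 of 3 WT arrays, and the groups overlapped. The log2 fold change was 0.09 ± 0.40 (SE), and its sign differed between settings, with -0.31 without WT replicate 2, -0.16 without AhRCA replicate 1 and -0.037 with normexp. The dimmer Osm probe was well above background on 1 AhRCA array and on 0 WT arrays.

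Il31 had 1 probe, well above background on 1 of 3 AhRCA arrays and 1 of 3 WT arrays, and was not tested. Its processed intensities were 7.95, 96.6 and 23.1 in AhRCA 1 to 3, against 12.7, 10.65 and 36.0 in WT 1 to 3. The array of AhRCA 2 was the brightest of the 6 and that of AhRCA 1 the dimmest, so the groups overlapped. No fold change is given for Il31, since its probe was not well above background on most arrays of either genotype.

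In the fit across all genes (limma, adjusted p under 0.05), 2 of the 5 tested members passed, Il31ra higher and Lifr lower, where 2.18% of the 12824 genes passed, 0.530% higher and 1.65% lower. In 4 of the 5 the groups did not overlap, against 16.4% of all genes, with 2 higher (7.52% of all genes) and 2 lower (8.84%). Since this contrast chose the members, nothing is read from these counts. With the litter pair as a block 3 of 5 passed, Il6st being the added 1, where 3.88% of all genes did. With the slide as a block 4 of 5 passed, Il6st and Osmr being added, where 4.20% of all genes did. The count was 1 on slide 1 alone, where Il31ra missed the threshold with a log2 fold change of 2.25, and 1 without WT replicate 2, where Lifr missed it with -1.10.

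**Figure D3:**
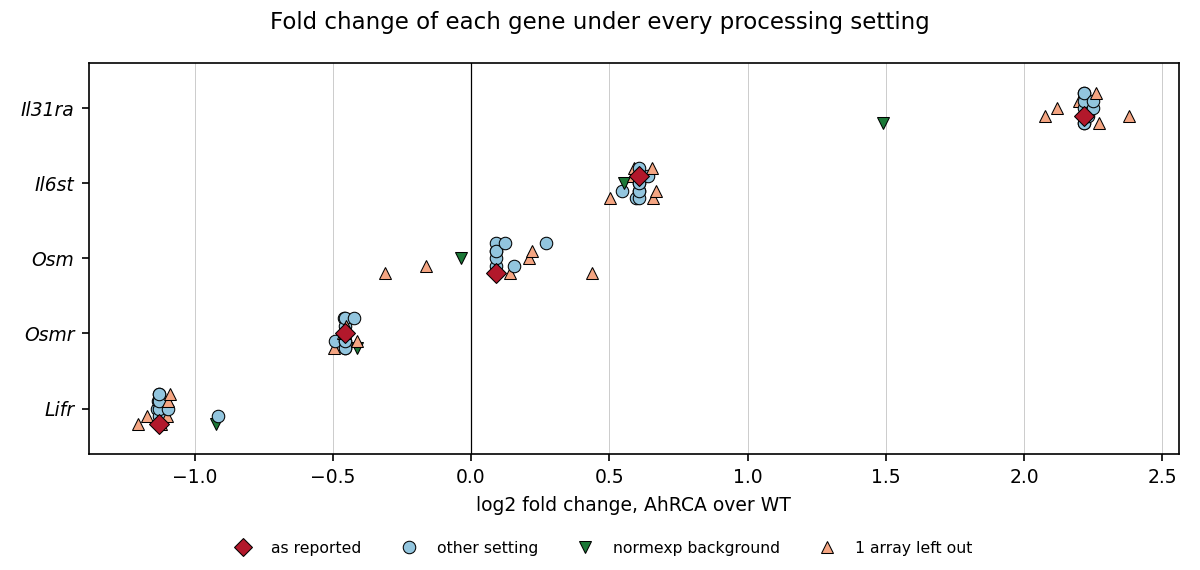
Log2 fold change, AhRCA over WT (horizontal axis), of the 5 tested genes under the reported setting (diamonds) and each alternative (other symbols). Il31ra lies between 1.49 and 2.38 and Lifr between -1.20 and -0.92, Il6st and Osmr keep to 1 side of 0, and Osm lies on both sides.

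Whether the arrays differed apart from genotype was a measure that the choice of members did not use. Between slide 2 and slide 1, with genotype in the fit, 14.5% of all genes passed (limma, Benjamini-Hochberg) and 0 of the 5 members did. Il6st was the only member with an unadjusted p under 0.05, as 35.0% of all genes had. It was lower on slide 2 by a log2 difference of -0.23 (95% interval -0.43 to -0.023, adjusted p = 0.115). For Il31ra the difference was -0.11 (-0.60 to 0.38), for Lifr -0.12 (-0.35 to 0.10), for Osmr -0.058 (-0.26 to 0.14) and for Osm -0.12 (-1.28 to 1.05). Slide, litter pair 3 and, by the Xist values, sex coincide and cannot be told apart.

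The genotype difference on slide 2 minus that on slide 1 was also tested, and 0 of the 5 members passed, where 0.00780% of the genes did; 0 members had an unadjusted p under 0.05, where 9.98% of the genes did. The difference was -0.098 for Il31ra (95% interval -1.27 to 1.08) and 0.0055 for Lifr (-0.50 to 0.51). It was 0.19 for Il6st (-0.18 to 0.55), 0.11 for Osmr (-0.29 to 0.52) and -0.55 for Osm (-3.33 to 2.24). With 1 pair on slide 2 these intervals are wide.

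The receptor genes lie in neighbouring pairs in the RefSeq gene table. Il31ra and Il6st are adjacent protein-coding genes on chromosome 13, Osmr and Lifr on chromosome 15, and Osm and Lif on chromosome 11. Both genes of the pair on chromosome 13 stood higher in AhRCA and both genes of the pair on chromosome 15 stood lower. In the fit across all genes Il31ra and Lifr passed, and Il6st and Osmr did not. Since this contrast chose the members, the shared directions are a description and were not tested. The 2 nearest protein-coding genes with a named probe on each side of each member gave 16 other genes. Of these 12 were tested and 0 passed (limma, Benjamini-Hochberg), with log2 fold changes between -0.71 and 0.93. Over all genes 2.18% passed, so nothing is read from this count. On the other side of Il6st, Ankrd55 had -0.71 ± 0.26 (SE, adjusted p = 0.328), and, with Ddx4 between it and Il31ra, Slc38a9, a lysosomal amino acid transporter, had 0.30 ± 0.13 (adjusted p = 0.416). Next to Osmr, Rictor, a subunit of the mTORC2 kinase complex, had 0.12 ± 0.12 (adjusted p = 0.932) and, beyond it, Fyb, an adaptor protein of T cells, had 0.47 ± 0.10 (adjusted p = 0.084).

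The rest of the pathway was described by 7 lists with 121 genes in all, of which 85 were tested. In the fit across all genes 0 rose and 1 fell, Timp1, and 15 had an unadjusted p under 0.05, or 17.6% against 12.2% of all genes. Blocking on the litter pair, 4 rose and 1 fell in AhRCA, or 5.88% against 3.88% of all genes. Ctss, Il23a and Il22ra2 were among those that rose, and Il11ra1 fell. The median log2 fold change of all 12824 genes was 0.0013.

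Of 9 tested ligands of the interleukin 6 and 12 families outside the members, 0 passed (limma, Benjamini-Hochberg; 1 at an unadjusted p under 0.05), and the median was 0.09. Il23a, the p19 subunit of interleukin 23, stood at -1.74, -2.16 and -2.33 in AhRCA 1 to 3, against -3.19, -2.96 and -4.11 in WT 1 to 3. The groups did not overlap, and the log2 fold change of 1.34 ± 0.32 (SE) had an adjusted p of 0.109, or 0.0485 when blocked on the litter pair.

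Of 9 other receptor genes of the gp130 type 4 were tested, 0 passed, 2 had an unadjusted p under 0.05 and the median was -0.37. Il11ra1, the interleukin 11 receptor chain that pairs with gp130, stood at 4.03, 4.06 and 3.62 in AhRCA 1 to 3, against 4.81, 4.96 and 4.56 in WT 1 to 3. Its log2 fold change of -0.88 ± 0.17 (SE) had an adjusted p of 0.0606 (limma, Benjamini-Hochberg), or 0.0168 when blocked on the litter pair. Il11ra1 passed in 4 of 16 alternatives, normexp and quantile normalization among them, and the adjusted p reached 0.223 in the others. Il12rb1, a chain of the interleukin 12 and 23 receptors, had -0.66 ± 0.64 (adjusted p = 0.925). Il27ra, Il12rb2, Csf3r and Lepr were not well above background on any array.

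Downstream of the receptors, 18 of 19 genes of JAK kinases, STATs and adaptors were tested and 0 passed (limma, Benjamini-Hochberg; 2 at an unadjusted p under 0.05), with a median of 0.0010. Jak1, the kinase bound to gp130 and Osmr, had 0.33 ± 0.12 (SE, adjusted p = 0.324), and Jak3, a kinase of lymphoid cytokine receptors, had -0.40 ± 0.26 (adjusted p = 0.75). Among 15 feedback inhibitors of this signalling 0 passed (1 at an unadjusted p under 0.05) and the median was 0.09. Socs5 had 0.60 ± 0.14 (adjusted p = 0.115) and Socs7 0.51 ± 0.70 (adjusted p = 0.985, and a log2 fold change of -0.21 without AhRCA replicate 2).

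Of 16 tested target genes of STAT3 and immediate early genes, 1 fell, 0 rose and the median was 0.13. This was Timp1, an inhibitor of metalloproteinases that oncostatin M is known to induce. It stood at -2.81, -2.65 and -2.73 in AhRCA 1 to 3, against -1.54, -1.96 and -2.0 in WT 1 to 3, so that the groups did not overlap. Its log2 fold change was -0.90 ± 0.15 (SE), with an adjusted p of 0.0402 by limma with Benjamini-Hochberg adjustment. The call was lost under 12 of 16 alternatives, among them blocking on the litter pair (adjusted p = 0.0548) and the omission of any 1 array (adjusted p up to 0.148).

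Of 15 tested type 2 and epithelial cytokine and receptor genes 0 passed (limma, Benjamini-Hochberg; 2 at an unadjusted p under 0.05), and the median was 0.10. Il22ra2, a soluble receptor that binds interleukin 22, had 1.11 ± 0.33 (SE, adjusted p = 0.204, or 0.0237 when blocked on the litter pair), and Il2rg, the common gamma chain, 0.74 ± 0.28 (adjusted p = 0.348). Tslp, Il4, Il5 and Il25 were among 9 genes of this list that 0 arrays showed well above background. Of 8 tested itch mediators, channels and receptors 0 passed, 4 had an unadjusted p under 0.05 and the median was -0.28. Ctss, cathepsin S, had 0.65 ± 0.16 (adjusted p = 0.125, or 0.0378 when blocked on the litter pair), and Ednra, an endothelin receptor, -0.91 ± 0.27 (adjusted p = 0.198). Mrgpra3, Trpa1, Tac1 and Calca, which encode receptors and peptides of itch fibres, were among 12 genes of the list that 0 arrays showed well above background, and Trpv1 and Mrgprd had no matched probe.

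**Figure D4:**
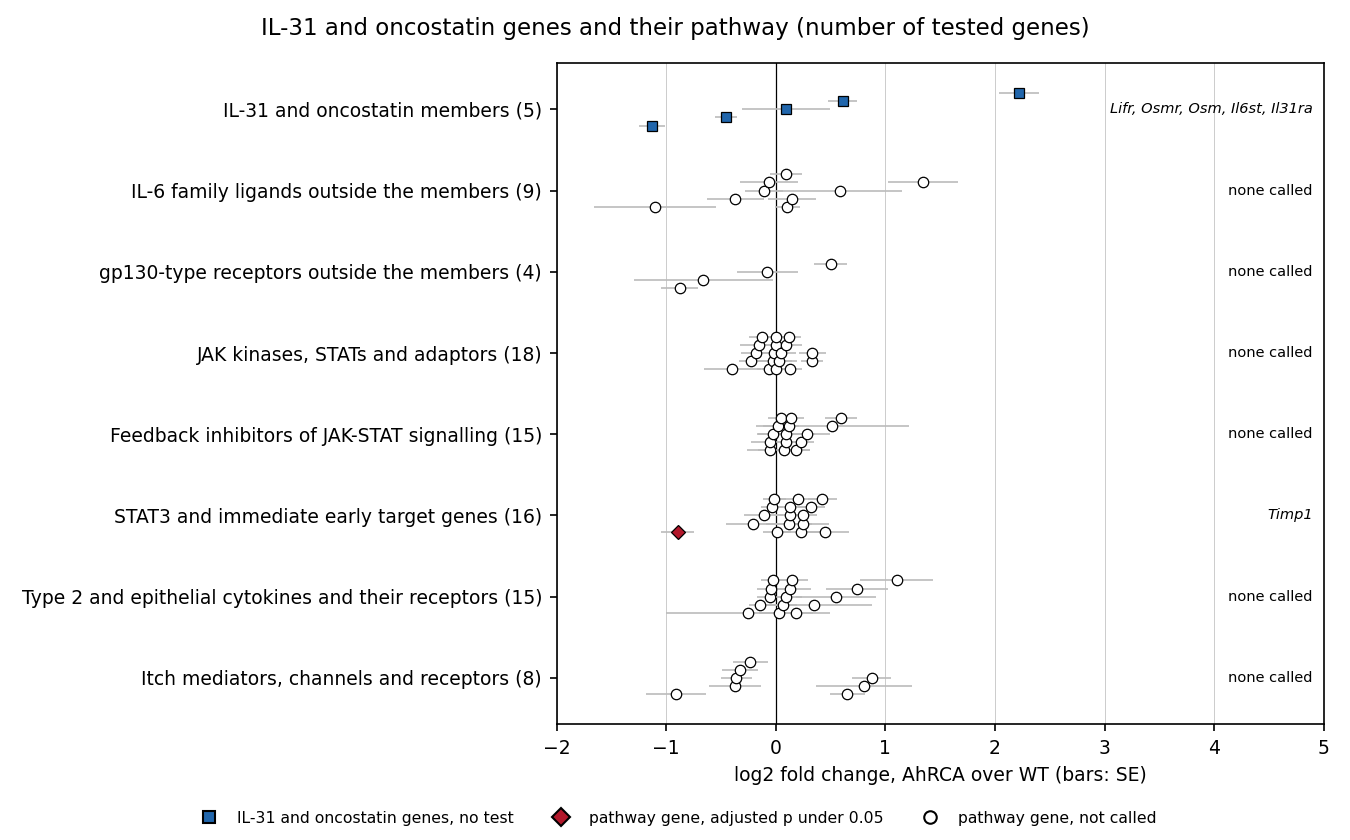
Log2 fold change with SE, AhRCA over WT (horizontal axis), of the 5 tested IL-31 and oncostatin genes (squares) and of the 85 tested pathway genes by list, with a diamond where the adjusted p was under 0.05. Timp1 is the only pathway gene with a diamond, and Il31ra lies to the right of all pathway genes.

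Over the 6 arrays, the genes whose values followed those of Il31ra most closely, by Pearson's r among 12056 other genes well above background on all of them, were Fyb (0.997), Zc3h12c, an RNase of the Regnase family (0.994), Rexo1 (0.993), Smarca2, a chromatin remodelling ATPase (0.993), and Epc2 (0.992). The 3 genes that ran most against it were Fads3, a fatty acid desaturase family gene (-0.999), Syt7, a synaptotagmin (-0.996), and Elovl3, a fatty acid elongase (-0.994). The 6 points share the genotype, the slide and the litter, so r mostly repeats the genotype difference. Zc3h12c had a log2 fold change of 0.73 ± 0.11 (SE, adjusted p = 0.0319, limma, Benjamini-Hochberg), lost in 9 of 16 alternatives with adjusted p up to 0.138, and Epc2 had 0.12 ± 0.09 (adjusted p = 0.833).

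Epidermis also holds immune cells that can carry these receptors or make these ligands, and the markers of some differed with the genotype. In bulk RNA, fewer cells of a type and less RNA per cell cannot be told apart. Of 5 tested macrophage and monocyte markers 1 rose, Adgre1, with 0.67 (adjusted p = 0.0321, limma, Benjamini-Hochberg) and 0 fell. Cd14, Fcgr1 and Csf1r had 0.67, 0.65 and 0.13 and Itgam -0.16, with adjusted p from 0.387 to 0.964 in the same fit. Lyz2 was not well above background on any array. The call of Adgre1 was lost in 9 of 16 alternatives, the omission of any 1 array among them, with adjusted p up to 0.16. The summed level of the 5 tested markers, in log2, lay between 1.74 and 1.89 in AhRCA and between 1.23 and 1.53 in WT. Such sums add the signals of the probes before the log2 step, so the brightest probes weigh most. A sum is therefore not a level of the cell type. Of 6 tested Langerhans cell markers 1 fell, Cd207, which was well above background on 0 of 3 AhRCA arrays and 3 of 3 WT arrays and so passed the filter through WT alone. It was at least 3.09-fold lower in AhRCA, against the lowest signal well above background on each AhRCA array or the probe's own where higher. This bound was not tested. Cd207 measured -5.95 in AhRCA and -3.36 in WT on average. The adjusted p of 0.0206 (limma, Benjamini-Hochberg) belongs to these measured values, those in AhRCA not being well above background. The call was lost without a filter on dim probes. It was also lost without AhRCA replicate 1 or 2 or WT replicate 1 or 2 (adjusted p 0.0534 to 0.0879). With the litter pair as a block 4 of the 6 fell, Cd74, H2-Ab1 and Mfge8 being added with log2 fold changes of -1.15, -1.64 and -1.15. The sum of the 6 lay between 3.58 and 4.10 in AhRCA and between 4.52 and 5.09 in WT. Mfge8 was the brightest of them in both genotypes, so it weighed most, while Epcam and Ltc4s differed by -0.21 and -0.05. Of 6 tested T cell markers 0 passed, and the sum lay between -0.055 and 0.12 in AhRCA and between 0.67 and 1.44 in WT. Thy1, the brightest of them in both genotypes, had -1.36 ± 0.27 (SE) and did not overlap between genotypes. Its adjusted p was 0.0653 (limma, Benjamini-Hochberg), or 0.0456 with the slide as a block. With the litter pair as a block 0 of the 6 T cell markers passed, Thy1 included. Cd3e, Cd3d, Cd3g, Lck and Cd4 overlapped, with log2 fold changes between -1.24 and -0.17. Cd247 and Cd8a stood well above background on 0 arrays. The part of these immune cells in the values of Il31ra, Il6st, Osmr and Lifr was not tested. Of the neutrophil and mast cell markers 1 each was tested, and 0 passed. Fibroblast marker sums overlapped between the genotypes, from 4.55 to 4.61 in AhRCA and from 4.51 to 4.94 in WT, and Dcn, the brightest, weighed most. Of the 6 tested fibroblast markers 0 passed, 3 having positive and 3 negative log2 fold changes. Among the latter Col1a2 had -1.19 ± 0.23 (SE) and did not overlap between genotypes. Its adjusted p was 0.0622 (limma, Benjamini-Hochberg), or 0.0464 with the slide as a block. With the litter pair as a block 0 of the 6 fibroblast markers passed, Col1a2 included.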

How the data were processed

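Epidermal RNA was purified on RNeasy Micro columns and carried Cy3 (Quick Amp), per the labels' protocols. The deposited array files hold 1 intensity per spot, computed by Agilent Feature Extraction (version 10.7.3.1), per the file headers, which do not detail the background step behind the processed signal used here; its 75th percentile still differed between arrays, from 627 to 754. The authors' deposited table holds log2 values; set against the scanner values it had a slope of 1, each probe centred on its median and a scaling that is not stated in the sources used here. It served as an alternative.

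Intensities were put on the log2 scale and the 75th percentile of non-control spots was subtracted. Control and outlier-flagged spots were left out and replicate spots averaged. Of 41174 probes 26690 were named through unversioned RefSeq accessions (GRCm38.p6), 0 matched several symbols and 14484 none. The brightest probe well above background on at least 3 of 6 arrays stood for a gene. Genotypes were compared with limma 3.58.1 (R 4.3.3; lmFit, eBayes, 2 group means, prior df 2.62), two-sided, with Benjamini-Hochberg adjustment over 12824 genes; scripts were tested on simulated data.

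The labels pair replicates as littermates; same-numbered arrays had deviations that correlated at 0.337, 0.372 and 0.55 over 12821 genes, so the litter pair was used as a block in an alternative. The members and lists were chosen with earlier results of these data known. Genes named from a pathway list are the called ones, at most 4, taken by size of change, or failing any call the top 2 by size; some that this rule names are not reported here, and block calls and marker genes were named after their values were seen. Genes most like Il31ra are the 5 highest and 3 lowest by r. Alternatives were the background correction, normalization, filter, choice of probe, deposited table, litter or slide as a block, slide 1 alone and leaving out each array. Normexp was planned on mean signals and run on median signals with an offset of 50, which was chosen after seeing the files' columns.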

Additional observations from a re-analysis of the deposited data

Results flagged for a closer look

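Olfr638, an olfactory receptor gene outside the IL-31 and oncostatin genes, was the only gene called in the test of the genotype difference between slides (limma, Benjamini-Hochberg, adjusted p = 0.03). The difference on slide 2 minus that on slide 1 was 7.68 on the log2 scale, with AhRCA minus WT at -4.12, -4.13 and 3.55 in pairs 1 to 3. Its probe was well above background on 1 AhRCA array and 2 WT arrays, so each of these differences sets 1 array against a value that was not well above background, and their sizes are no measured folds. The call was lost with normexp, without a filter on dim probes, in probes well above background on every array and when blocked on the litter pair.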

How the results depend on the processing

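Of the 5 tested members, Il31ra, Il6st, Osmr and Lifr kept their direction under all 16 alternatives, and Osm, under 15, turned to -0.037 with normexp and ranged from -0.31 to 0.44 when 1 array was left out. Socs7 ranged from -0.21 to 1.29 when 1 array was left out. The 279 genes called became 497 with the litter pair as a replicate block, 539 with the slide as a block, 130 on slide 1 alone, 132 without a filter on dim probes, and 62 to 195 when 1 array was left out (fewest without WT replicate 2). The 2 members called became 4 with the slide as a block, 1 on slide 1 alone and 1 to 2 when 1 array was left out. The 1 pathway gene called became 5 with the litter pair as a replicate block, 4 with slide as a block, and 0 with median scaling, without a filter or on slide 1 alone. It was 0 to 1 when 1 array was left out. With normexp and with quantile normalization the count stayed at 1, but the gene was Il11ra1 and Timp1 was lost. Without WT replicate 1 the 1 gene called was from the type 2 and epithelial list. The 1 gene called for a genotype difference between slides became 0 with normexp, when 6 of 6 arrays had to be well above background, without a filter, with the litter pair as a replicate block, and 0 when 1 array of slide 1 was left out. The 1860 genes called between slides became 4860 with median scaling, 559 without a filter and 37 to 366 when 1 array was left out. The 0 members called between slides became 1 with median scaling. Normexp on mean signals was not run; median signals took their place. Fits with fewer arrays have fewer residual degrees of freedom; the cause of the other changes was not tested. Where 1 array of slide 2 is left out, the other is assumed to vary like the arrays of slide 1. Dim probes, those of Osm and Il31 among them, limit what can be said of the ligands.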
